A study of Mus musculus with 4 samples.

Results

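The metallothioneins Mt1 and Mt2, their metal-responsive transcription factor Mtf1 and the zinc exporter Slc30a1 were followed in the transcriptome and the translatome of the mouse blastocyst. These 4 genes are 4 of the 20714 gene symbols listed in both assays. The set was chosen by the mRNA level of Mt1, which is among the highest in these embryos, and the other 3 genes were added for their known link to it. The mRNA level of Mt1 and its RPF to mRNA ratio are therefore given as descriptions, with no test. Wild-type embryos, themselves untreated, came from 4-week-old C57BL/6J females mated with PWK/PhJ males, whereas the strain label reads C57BL/6N x PWK. The females had been injected with the hormones PMSG and hCG to induce ovulation. The embryos were taken at the 8-cell stage, grown to blastocysts in KSOM medium and freed of the zona pellucida. All 4 libraries share this origin, and the paper warns that superovulation and culture may affect embryos. For each assay there were 2 replicate libraries. The labels do not say whether replicates came from separate embryo pools, so that p-values measure only the spread between these libraries, which may be technical. RNA-seq measured polyA mRNA, and Ribo-seq measured ribosome-protected fragments (RPFs), the short stretches of mRNA that a ribosome covers during translation. Both are in FPKM, that is fragments scaled to the length of the feature in kilobases and to the size of the library.

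Metallothioneins are very small cytoplasmic proteins in which cysteines bind zinc, copper and cadmium in clusters, and they buffer free zinc. When zinc rises, Mtf1 binds it through its zinc fingers, enters the nucleus and activates genes that carry metal response elements, of which Mt1, Mt2 and Slc30a1 are textbook targets. Slc30a1 (ZnT1) sits in the plasma membrane and moves zinc out of the cell, whereas importers of the Slc39a (ZIP) family bring zinc into the cytoplasm. Zinc is needed for oocyte maturation, is released at fertilization and is again needed by the cleaving embryo.

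The annotation used for places and lengths was GENCODE vM1 on NCBIM37, the assembly of mm9. Mt2 lies at chr8:96696518-96697467 and Mt1 at chr8:96702989-96704225, both on the plus strand, with 5521 bases between them. Each has 3 exons, the middle one wholly coding and the outer ones coding in part, and a coding sequence of 186 bases. Both coding sequences are shown because their length and their likeness bear on every value below. They run 5′ to 3′ from the start codon to the stop codon, with each cysteine codon in capitals.
Mt1: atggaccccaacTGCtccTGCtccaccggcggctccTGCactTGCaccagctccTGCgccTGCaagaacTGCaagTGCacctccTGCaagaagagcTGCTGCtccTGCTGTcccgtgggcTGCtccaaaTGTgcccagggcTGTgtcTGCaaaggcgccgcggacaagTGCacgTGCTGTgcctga
Mt2: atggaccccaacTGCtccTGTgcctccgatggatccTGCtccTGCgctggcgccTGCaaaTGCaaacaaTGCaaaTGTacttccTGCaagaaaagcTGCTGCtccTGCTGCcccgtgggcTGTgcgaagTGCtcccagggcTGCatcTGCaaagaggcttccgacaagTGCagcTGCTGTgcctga
Cysteine took 20 of the 61 codons before the stop in each gene (32.79%), and all 20 were at the same positions in both. The pair had 148 of 186 bases (79.57%) and 46 of 61 encoded residues (75.41%) in common. The longest identical stretch was bases 1 to 20. Mtf1 lies at chr4:124479348-124527044 with a coding sequence of 2028 bases in 10 of 11 exons. Slc30a1 lies at chr1:193730646-193737126 with a coding sequence of 1512 bases in 2 exons.

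The question of whether reads could be assigned to the right metallothionein was examined with windows of 28 bases, about the length of a footprint. None of the 159 windows of the Mt1 coding sequence was identical to any window of the Mt2 transcript, and the same held in the other direction. The fewest mismatches of a window to the other gene had a median of 7. Only 18 of 159 windows (11.32%) in each gene came within 2 mismatches, the limit that the study set for Ribo-seq, and these began between bases 79 and 96. In the genome, no Mt1 window had a second exact place, and 13 Mt2 windows had 2 places. The genome was searched unspliced, and 51 Mt1 and 39 Mt2 windows had no exact place in it. A window across an exon border is split in its own gene, so that an exact place of it can lie elsewhere. The 13 windows can therefore be too few. No window of either gene occurred in a coding transcript of another gene. The coding sequences of Mt1 and Mt2 in the reference genome can thus be told apart over most of their length. How the authors' mapping shared out the rest was not tested. Windows outside the coding sequence, which RNA-seq also reads, and differences of the PWK/PhJ alleles from the reference were not examined.

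**Figure D1:**
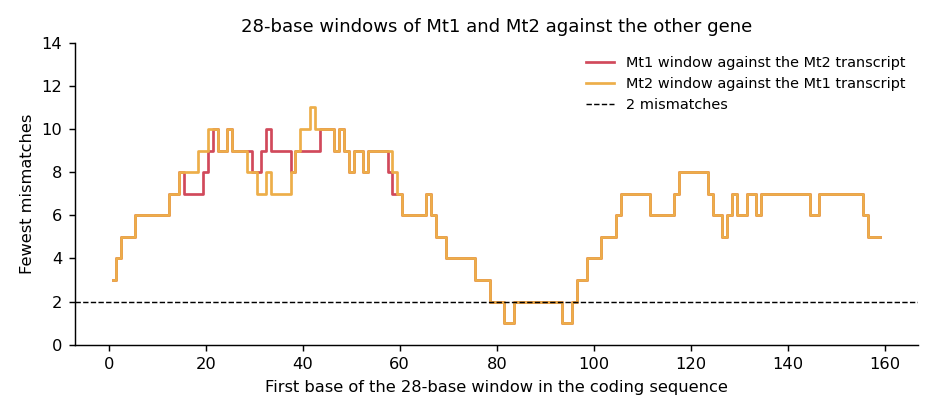
Fewest mismatches of each 28-base window of the Mt1 (red) and Mt2 (yellow) coding sequences against the transcript of the other gene. The x axis gives the first base of the window, the y axis the number of mismatching bases, and the dashed line 2 mismatches. The lines dip to 2 or fewer mismatches for 18 windows of each gene in the middle of the coding sequence and never reach 0.

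Because Mtf1 acts through metal response elements, their 7-base core (TGCACNC or TGCGCNC, where N is any base, on both strands) was searched for in 2 windows of each gene. The first was the 250 bases before the RefSeq start on GRCm38.p6, a later build than that of the files. The windows of Mt1, Mt2 and Slc30a1 are shown 5′ to 3′ on the plus strand, with matches in capitals, since they hold all the matches of the 4 genes.
Mt1, chr8:94178839-94179088: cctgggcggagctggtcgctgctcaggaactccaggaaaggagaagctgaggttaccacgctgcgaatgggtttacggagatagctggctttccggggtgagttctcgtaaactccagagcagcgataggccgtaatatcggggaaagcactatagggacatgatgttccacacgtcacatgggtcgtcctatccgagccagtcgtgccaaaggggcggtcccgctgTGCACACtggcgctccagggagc
Mt2, chr8:94172368-94172617: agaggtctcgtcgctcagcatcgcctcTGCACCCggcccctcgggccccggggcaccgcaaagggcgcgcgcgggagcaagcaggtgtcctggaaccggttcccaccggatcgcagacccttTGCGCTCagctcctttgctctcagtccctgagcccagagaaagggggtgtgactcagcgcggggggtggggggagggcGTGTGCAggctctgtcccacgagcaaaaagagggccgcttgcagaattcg
Slc30a1, chr1:191906531-191906780: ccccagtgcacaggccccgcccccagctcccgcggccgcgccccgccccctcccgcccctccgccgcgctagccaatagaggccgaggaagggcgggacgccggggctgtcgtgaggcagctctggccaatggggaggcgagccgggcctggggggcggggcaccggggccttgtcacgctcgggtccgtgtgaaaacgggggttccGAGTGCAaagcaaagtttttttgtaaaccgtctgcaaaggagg
Mt1 had 1 match, Mt2 had 3, Slc30a1 had 1 and Mtf1 had 0. Of all 32851 such windows, 21.406% had at least 1 match and 1.263% had at least 3. The second window was the 250 bases before the coding start on NCBIM37, which were added because the annotated starts of Mt1 and Mt2 lie 222 and 230 bases before their coding starts. Here Mt1 had 5 matches, at 124, 138, 202, 220 and 245 bases before the coding start, and Mt2 had 4, at 119, 153, 172 and 226 bases. The match of Mt1 nearest to the coding start reads TGCGCCC on the plus strand. Slc30a1 had 1 match and Mtf1 had 0 in its own window. The coding start of Mtf1 lies 2162 genomic bases after its annotated start, and most of its second window is intron. The value of 0 therefore says nothing about the bases next to the start of Mtf1. Windows of all genes were set by the coding start in the same way. Of 22594 genes, 0.319% had at least 4 matches and 0.058% had at least 5. This window was chosen after the first had been seen, and Mt1 and Mt2 are textbook targets. These shares are therefore a description and no test of control by Mtf1. The 2 windows of a gene can overlap. The TGCACAC of Mt1 at 23 bases before the RefSeq start is the same site as its match at 245 bases before the coding start. A match describes letters, not a bound site.

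In both RNA-seq libraries the metallothioneins were near the top of all genes. Mtf1 was far lower, and Slc30a1 was near 1 FPKM. Mt1 mRNA was at 7453 FPKM in replicate 1 and 5100 FPKM in replicate 2. It ranked 1 and 5 of 25039 symbols. Its replicates differed 1.46-fold, and 75.8% of the 9101 genes with a mean of at least 1 FPKM had a smaller gap between replicates on the log2(FPKM + 1) scale. By the mean of both libraries, Mt1 was 5th with 6276 ± 1664 FPKM (SD, n = 2). Actb, the cytoplasmic beta actin, ranked just above with 5849 and 7344 FPKM, and Fabp3, a fatty acid binding protein, just below with 7008 and 4882 FPKM. The values of Mt1 overlapped with those of both neighbours, so that the order of these genes cannot be given beyond the spread of replicates.

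Mt2 mRNA was at 2835 and 2590 FPKM, with a mean of 2712 ± 174 FPKM (SD, n = 2). It ranked 19 and 26. Mt1 mRNA was higher than Mt2 mRNA in both libraries, by 2.63-fold and 1.97-fold. Mt1 thus took 72.4% and 66.3% of the summed FPKM of the pair. The difference of Mt1 and Mt2 on the log2(FPKM + 1) scale had a mean of 1.19 ± 0.29 (SD, n = 2).

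Mtf1 mRNA, which encodes the zinc sensor, was at 2.57 and 3.89 FPKM. Slc30a1 mRNA, which encodes the exporter, was at 0.844 and 1.18 FPKM. The Mt1 level was thus 2901 and 1310 times that of Mtf1. In each library the order was Mt1, Mt2, Mtf1 and Slc30a1, and no neighbours in this order overlapped. The mean mRNA of Slc30a1 was 1.01 FPKM, so that it only just passed the limit of 1 FPKM for the comparison of the assays, whereas the other 3 genes passed it in every library.

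**Figure D2:**
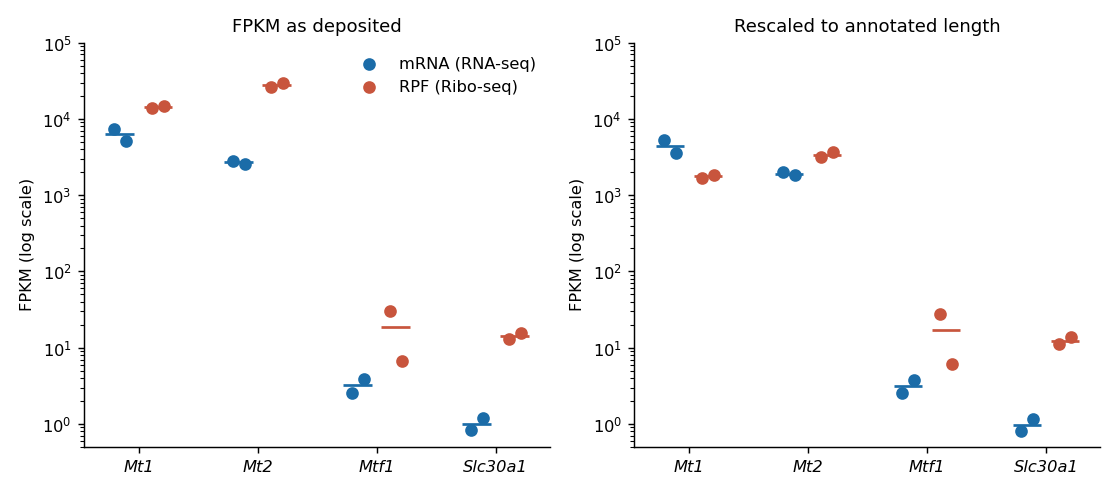
FPKM of the 4 genes in each library on a log axis, as deposited (left) and after rescaling to the annotated feature length (right). Blue points are the 2 RNA-seq libraries, red points the 2 Ribo-seq libraries, and lines their means. As deposited, the RPF points of Mt1 lie above its mRNA points, and after rescaling they lie below them.

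In the translatome the order of the metallothioneins was the opposite. Mt2 RPF was at 26051 and 29528 FPKM, with ranks 6 and 5 of 20756 symbols. Mt1 RPF was at 13850 and 14900 FPKM, with ranks 13 and 12. Mt2 was higher than Mt1 by 1.88-fold and 1.98-fold, and the values of the genes did not overlap. The difference of Mt1 and Mt2 on the log2(FPKM + 1) scale was -0.95 ± 0.05 (SD, n = 2). Mt1 took 34.7% and 33.5% of the summed RPF FPKM of the pair. Mt1 was therefore the larger part of the pair in 2 of 2 RNA-seq libraries and the smaller part in 2 of 2 Ribo-seq libraries. Since both coding sequences have the same length, their ratio in Ribo-seq does not change with the length used. The mRNA level of Mt1 entered the choice of genes, so that no test was made of this difference between the assays.

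RPFs of Mtf1 and Slc30a1 were detected in both replicates at a far lower level. Mtf1 RPF was at 30.7 FPKM in replicate 1 and 6.77 FPKM in replicate 2, a 4.54-fold gap. Slc30a1 RPF was at 12.8 and 15.7 FPKM, and its replicates differed 1.22-fold. The order of these genes turned between replicates, with Mtf1 above Slc30a1 in replicate 1 and below it in replicate 2. Their RPF levels cannot be ordered with 2 replicates.

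How many fragments stood behind these values was read from the low FPKM values, which lie on steps of whole fragments. By these steps, RNA-seq replicate 1 held 5341011 fragments and replicate 2 held 5072912, whereas Ribo-seq replicate 1 held 530951 and replicate 2 held 481386. Of the values examined, 66.6% and 66.5% in RNA-seq and 87.0% and 87.1% in Ribo-seq lay within 0.1 of a whole fragment. Chance gives 20% for a total set in advance. The total was chosen to give the most whole values, so that chance under this fit can be higher, and it was not measured. For short coding sequences like those of Mt1 and Mt2, only 20 and 19 values were examined in Ribo-seq replicates 1 and 2. Of these, 95% and 68.4% lay this near a whole fragment, so that the scale is less well checked at their length. On this scale Mt1 RPF stood for 166 footprints (exact Poisson 95% interval 142 to 193) and 165 footprints (141 to 192). Mt2 RPF stood for 312 (278 to 349) and 328 (293 to 365) footprints. The intervals of Mt1 and Mt2 did not overlap in either replicate. Mtf1 stood for 29.8 footprints (20.2 to 42.8) in replicate 1 and 5.95 (2.202 to 13.1) in replicate 2, so that its replicates differed by more than counting error. Slc30a1 stood for 8.93 (4.12 to 17.1) and 9.92 (4.80 to 18.4) footprints. These intervals cover counting error only, and they take the annotated lengths to be those the authors used.

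The same steps show what a short coding sequence does to FPKM. Cufflinks divides by an effective length, which counts only the positions where a fragment of the assumed length can start. The shortest fragment was fitted to each Ribo-seq replicate, at 38 and 31 bases. With this and the Cufflinks default fragment length (mean 200 bases, SD 80), 186 coding bases have an effective length of 22.5 and 23.1 bases. Under this fit, which few short coding sequences checked, the deposited RPF FPKM of Mt1 and Mt2 are 8.26 and 8.06 times what their full length would give. The factor was 1.11 for Mtf1 and 1.16 and 1.15 for Slc30a1 in Ribo-seq, and between 1.40 and 1.43 for the mRNA of Mt1 and Mt2. Rescaled to the annotated length, Mt1 RPF was at 1678 and 1848 FPKM, with ranks 65 and 68 of the 18250 symbols with a length. Mt2 RPF was at 3156 and 3662 FPKM, with ranks 15 and 14. Mt1 mRNA was at 5249 and 3556 FPKM, with ranks 3 and 5. Mt1 and Mt2 mRNA levels thus kept near the top on either scale, whereas the RPF ranks of both genes fell.

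As a share of all implied fragments, the pair took 0.396% and 0.294% of RNA-seq fragments and 0.0899% and 0.102% of Ribo-seq fragments. RNA-seq fragments fall on whole transcripts of 540 and 556 bases, and footprints only on the coding sequence.

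RPF and mRNA levels were then compared gene by gene with limma on log2(FPKM + 1), centred on the median of each library, over 8327 genes that averaged 1 FPKM or more in RNA-seq and in Ribo-seq. A gene was called at a Benjamini-Hochberg adjusted p under 0.05 and a difference of at least 1 on the log2 scale. Of the 3 tested members, 1 was called higher in RPF and 0 lower, where 6.65% of all tested genes were called higher (554 genes) and 5.31% lower (442 genes). Without centring, RPF FPKM were above mRNA FPKM by a median of 1.26 on the log2 scale, and 4113 genes were called higher and 65 lower, so that all differences below are relative to the bulk of genes. Mt2 was the gene called, with an RPF level above its mRNA level by 1.85 (SE 0.26, limma adjusted p = 0.0335). Of all tested genes, 94.7% had a lower difference than Mt2. Slc30a1 had a difference of 1.42 (SE 0.28, 95% interval 0.66 to 2.19), and it missed the threshold (limma adjusted p = 0.0516). Mtf1 had a difference of 0.41 (SE 0.74, 95% interval -1.63 to 2.44, limma adjusted p = 0.712), an interval that leaves room for a shift in either direction. Mt1 had a difference of -0.28 (SE 0.31), close to the median of all tested genes (-0.24).

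The call of Mt2 depended on the length used. With FPKM rescaled to annotated length, its difference turned to -0.51 (SE 0.27, limma adjusted p = 0.240), that of Mt1 was -2.62 (SE 0.32), and 2.09% of the 7312 genes tested in that fit had a lower difference than Mt1. Without RNA-seq replicate 1 or 2, the difference of Mt2 was 1.93 and 1.78 (limma adjusted p = 0.309 and 0.327). Those fits called 0 genes in all, with 1279 and 1244 genes at an unadjusted p under 0.05 in limma, so that the lost call says nothing about Mt2. Short genes as a whole moved with the length: of 73 tested genes with a coding sequence under 250 bases, 27 were called higher (37.0%) and 0 lower, and their median difference was 1.17 as deposited and -0.74 after rescaling. Among these 73 genes, 64.4% had a lower difference than Mt2 and 17.8% a lower one than Mt1. On both scales the difference of Mt2 was above that of Mt1.

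**Figure D3:**
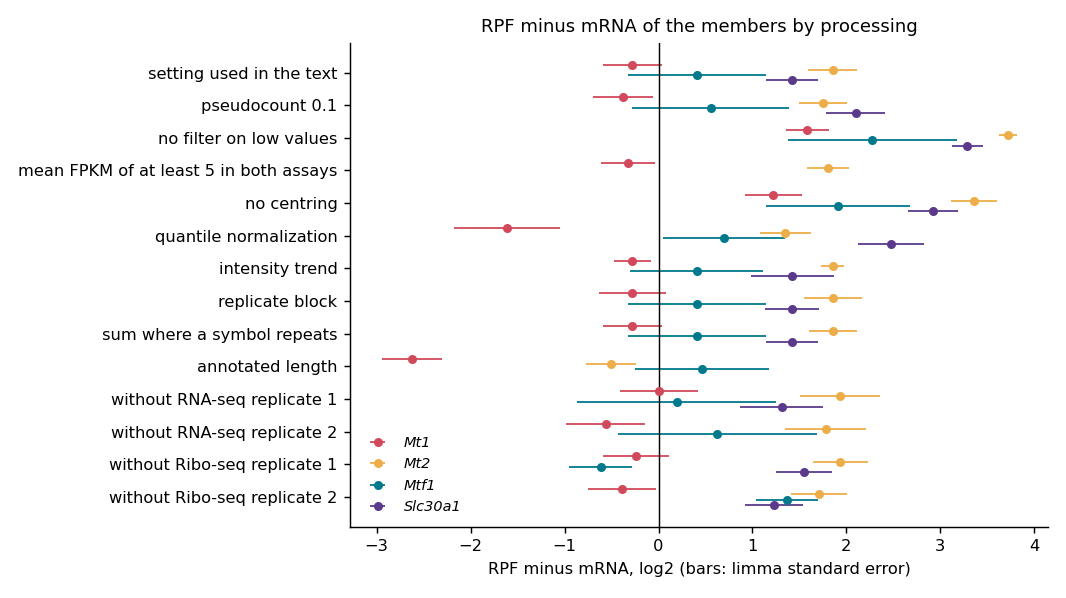
RPF minus mRNA difference of the 4 genes on the log2 scale under the processing used in the text and each alternative, with points for the fitted difference and bars for its standard error in limma. Mt2 is above 0 in every fit but that on annotated length, Mt1 runs from -2.62 to 1.58, and a gene is missing where it did not pass the filter.

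**Figure D4:**
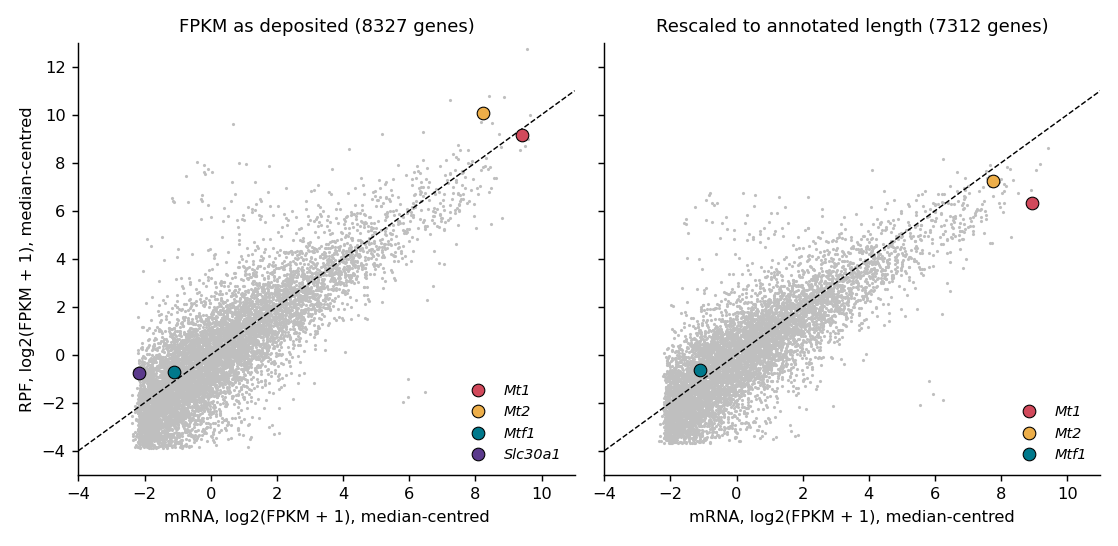
Mean RPF level against mean mRNA level of each tested gene (grey), both as median-centred log2(FPKM + 1), as deposited (left, 8327 genes) and rescaled to annotated length (right, 7312 genes). Coloured points are the 4 genes and the dashed line marks equal levels. Mt2 lies above the line on the left and below it on the right, Mt1 moves from just under the line to a difference of -2.62, and Slc30a1 is left out on the right because its rescaled mean mRNA was under 1 FPKM.

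The genes with the most similar levels were sought by the distance of log2(FPKM + 1) over the 4 libraries, among all 20714 symbols. The nearest to Mt1 were Dppa5a (distance 0.50), a pluripotency-associated RNA-binding protein, Fabp3 (0.89) and Actb (0.91). The nearest to Mt2 were the ribosomal protein genes Rpl38 (0.59) and Rpl39 (1.05), with AA467197 (0.74) between them. Mtf1 was nearest to Triobp (0.43), Rp2 (0.49) and Ccn1 (0.50). Among the genes nearest to Slc30a1 were Vps26b (0.25), a retromer subunit, and Lman2l (0.36). Only 4 libraries of 1 stage enter this distance, so that it compares levels, not regulation.

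The other metallothioneins were barely detected. Mt4, known from stratified epithelia, was at 8.27 and 3.53 FPKM in RNA-seq, for about 10.2 and 4.07 fragments, and it was listed at 0 in both Ribo-seq libraries. Mt3, known from brain, was listed at 0 in RNA-seq and in Ribo-seq replicate 2. Its 57.5 FPKM in Ribo-seq replicate 1 stood for 0.994 of a footprint, which shows how much 1 footprint weighs on so short a coding sequence. Neither gene passed the filter of 1 FPKM in both assays, and 3 footprints, the limit that a count of 0 allows, are worth 251 and 270 FPKM for a coding sequence of the length of Mt1.

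Among the 9 other members of the Slc30a family, 6 passed the filter, with 0 called higher and 1 lower. Over all tested genes, 6.65% were called higher and 5.31% lower. The median difference of the 6 genes was -0.03, where that of all tested genes was -0.24. Slc30a5 was the highest by mean mRNA, at 12.8 and 7.42 FPKM, followed by Slc30a6 at 9.52 and 6.80 FPKM and Slc30a9 at 7.77 and 6.67 FPKM. Slc30a5 and Slc30a6 are known to load zinc into the early secretory pathway. All of them were above Slc30a1 in both RNA-seq libraries. By mean RPF, Slc30a6 was the highest at 19.0 and 40.1 FPKM, ahead of Slc30a7 at 12.01 and 17.6 FPKM and Slc30a2 at 19.4 and 9.03 FPKM. This order turned between replicates, with Slc30a2 above both in replicate 1. The RPF values of Slc30a1 lay within the range of these 3 genes. Slc30a9 was the gene called lower in RPF, by -1.57 (SE 0.26, limma adjusted p = 0.0408), with 6.48 and 7.15 FPKM in RPF, or 5.17 footprints in each replicate. Without centring its difference was -0.07 (adjusted p = 0.841), and with a pseudocount of 0.1 it was -1.68 and missed the threshold (adjusted p = 0.0577). Slc30a8, the zinc transporter of insulin granules, was listed at 0 in all 4 libraries.

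Of the 14 importers of the Slc39a family, 9 passed the filter, with 1 called higher and 0 lower. The shares over all tested genes were 6.65% higher and 5.31% lower. The median difference of the 9 importers was 0.10. Slc39a2 led in mRNA, at 23.5 and 28.5 FPKM, followed by Slc39a1 at 22.4 and 20.4 FPKM and Slc39a4 at 23.3 and 18.7 FPKM. The mRNA values of Slc39a1 and Slc39a4 overlapped, and those of Slc39a2 lay just above them. By the mean of both libraries these 3 genes also led in RPF, where Slc39a2 was at 77.2 and 65.2 FPKM, Slc39a1 at 75.1 and 61.4 FPKM and Slc39a4 at 40.9 and 61.3 FPKM. The RPF values of Slc39a4 overlapped with those of Slc39a14, which was the higher of these genes in replicate 1. Slc39a1, Slc39a2 and Slc39a4 are importers of the plasma membrane. Each was above Slc30a1 in all 4 libraries. Slc39a14, an importer of zinc and of iron, was the gene called higher in RPF, by 1.43 (SE 0.26, limma adjusted p = 0.0467), from 4.56 and 4.89 FPKM in mRNA and 48.7 and 37.4 FPKM in RPF. With a pseudocount of 0.1 its difference was 1.55 and missed the threshold (adjusted p = 0.0606). Slc39a5, Slc39a8 and Slc39a12 were listed at 0 in all 4 libraries.

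**Figure D5:**
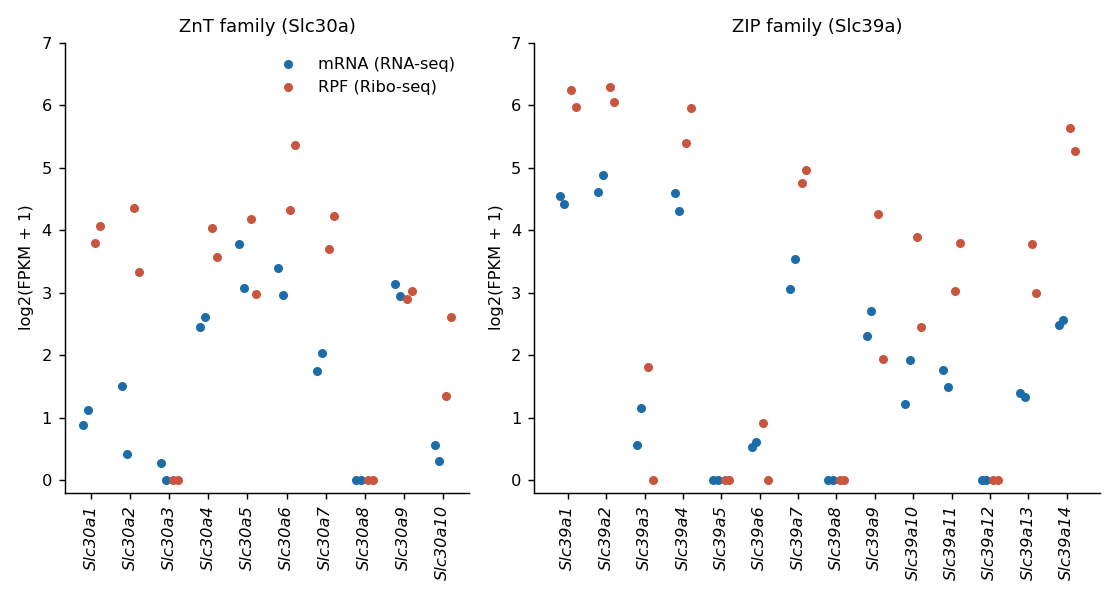
Levels of Slc30a1 and the 9 other Slc30a genes (left) and of the 14 Slc39a genes (right) in each library, as log2(FPKM + 1). Blue points are the 2 RNA-seq libraries and red points the 2 Ribo-seq libraries. Slc39a1, Slc39a2 and Slc39a4 have the highest mean mRNA and mean RPF levels, with Slc39a14 above Slc39a4 in Ribo-seq replicate 1, and Slc30a8, Slc39a5, Slc39a8 and Slc39a12 are at 0 in all 4 libraries.

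Of 5 other genes reported as Mtf1 targets, 4 passed the filter, with 1 called higher and 0 lower. The shares over all tested genes were 6.65% higher and 5.31% lower. The median difference of the 4 genes was -0.45. Csrp1, a LIM domain protein of the cytoskeleton, was called higher by 3.44 (SE 0.33, limma adjusted p = 0.0231). Its mRNA was at 33.6 and 53.5 FPKM and its RPF at 1329 and 1339 FPKM. Selenow, a small selenoprotein, had the highest mRNA of this list at 271 and 182 FPKM. Its RPF was at 77.6 and 256 FPKM, and its difference of -2.15 did not pass (limma adjusted p = 0.115). Ndrg1, a gene that responds to stress and low oxygen, was at 136 and 94.0 FPKM in mRNA and 555 and 579 FPKM in RPF, with a difference of 0.82 (limma adjusted p = 0.145). All 3 genes were below both metallothioneins in every library.

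Markers of the blastocyst and of other cells were read in the same libraries. All 8 trophectoderm markers had a mean of at least 1 FPKM in both assays. Of the 6 epiblast markers, 3 passed this limit in mRNA and 6 in RPF, and of the 5 primitive endoderm markers 1 passed in mRNA and 4 in RPF. The summed epiblast markers were at 146 and 58.4 FPKM in RNA-seq replicates 1 and 2, so that these libraries differed in their inner cell mass markers in the same direction as in Mt1, and the part of this in the Mt1 values was not tested. All 6 cumulus and granulosa markers and 5 of 7 oocyte markers were listed at 0 in all 4 libraries, and all 6 blood markers were at 0 in both Ribo-seq libraries. The oocyte coat gene Zp3 was at 1.13 and 0 FPKM in RNA-seq and at 1.74 and 1.92 FPKM in Ribo-seq. The globin gene Hba-a1 was at 1.62 and 0.729 FPKM in RNA-seq, a level near that of Slc30a1 mRNA. In implied fragments the genes were further apart, with 4.67 and 1.98 for Hba-a1 and 22.9 and 30.5 for the longer Slc30a1 transcript. In a bulk library, fewer cells with a transcript and less of it per cell cannot be told apart.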

How the data were processed

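Blastocysts were profiled by Smart-seq2 RNA-seq and by Ribo-seq, with 2 libraries for each assay. The authors deposited FPKM per gene and library. Per the labels and the study's methods, reads were trimmed (Trim Galore 0.4.2 for RNA-seq, cutadapt 1.14 for Ribo-seq), rRNA reads were discarded from Ribo-seq with Bowtie2 2.2.2, and the rest were mapped to the mm9 transcriptome with STAR 2.5.3a, with up to 20 places per read. Cufflinks 2.2.1 then gave FPKM over whole transcripts (RNA-seq) or coding sequences alone (Ribo-seq). No mapping statistics were used here.

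Members were the rows of each file with these symbols, and each occurs once. For the 590 repeated rows of each RNA-seq library and the 231 of each Ribo-seq library, the highest value was kept. Replicates held 0% identical values above 0. Spearman correlations of replicates, across genes, were 0.924 for mRNA and 0.898 for RPF. RPF and mRNA were compared with limma 3.58.1 in R 4.3.3 on log2(FPKM + 1), which understates the change of low genes, over 8327 genes with a mean of at least 1 FPKM in both assays, with 2 residual degrees of freedom. In data simulated at this size (8082 genes), 82 genes were changed by 3 and 59 by 5 on the log2 scale. This fit recovered 48.8% and 79.7% of them, and 6.45% of its 93 calls were on unchanged genes. The real fit called 554 genes higher and 442 lower, and no smaller change was simulated. The rates in the real data can therefore differ from these. Implied fragments were found by the total whose steps gave most whole values, for genes with 1 coding length. Fragment lengths were the Cufflinks default in Ribo-seq, with a shortest length fitted at 38 and 31 bases. In RNA-seq they had a fitted mean of 160 bases (SD 60 and 80). The authors used a UCSC mm9 annotation, whereas lengths here are those of GENCODE vM1, with 1 transcript per gene. Rescaling multiplied FPKM by the ratio of effective to full length. Python 3.11.15, numpy 2.4.6, pandas 2.3.3 and scipy 1.17.1 were used.

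The members and the gene lists were chosen with earlier results of these data known. Genes named were the members, the 3 highest of each zinc list by mean mRNA and by mean RPF, those of the lists that passed the test or were at 0 throughout, the 3 nearest to each member (1 gene that this rule names is not reported here), and the neighbours of Mt1 in mRNA rank. Alternatives were a pseudocount of 0.1, no filter or a minimum of 5 FPKM, no centring, quantile normalization, an intensity trend, the replicate number as a block, summing repeated symbols, the annotated length, and each library left out in turn. The 250 bases before the coding start were searched after the first window had been seen.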

Additional observations from a re-analysis of the deposited data

Results flagged for a closer look

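The difference of Mt1 and Mt2 on the log2(FPKM + 1) scale had opposite signs in the assays: 1.19 ± 0.29 (SD, n = 2) in RNA-seq and -0.95 ± 0.05 (SD, n = 2) in Ribo-seq, a gap of 2.13. It was picked out because every RNA-seq library had Mt1 above Mt2 and every Ribo-seq library had Mt2 above Mt1. The gap itself was not tested, since Mt1 was chosen for its mRNA level, and with 2 libraries against 2 an exact permutation test cannot go below p = 0.333. The order held in both assays after rescaling to annotated length. Windows of 28 bases that lie within 2 mismatches of the other gene made up 11.32% of each coding sequence, and their part in the gap was not tested. The part of the 13 Mt2 windows with 2 places in the genome was not tested either.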

How the results depend on the processing

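The difference of Mt1 and Mt2 kept its sign in both assays under every alternative tried, between 0.98 and 1.39 in RNA-seq and between -0.99 and -0.91 in Ribo-seq with a library left out. The RPF to mRNA differences moved far more. The number of genes called higher (554) became 308 with a pseudocount of 0.1, 5330 with no filter, 4113 without centring, 861 with an intensity trend and 0 with the replicate block. The number called lower (442) became 154, 158, 65, 716 and 0 in the same order, and 751 with a minimum of 5 FPKM. With a library left out, these counts ranged from 0 to 1187 and from 0 to 1647, with 0 when either RNA-seq replicate was missing, so that a call lost there says nothing about a single gene. Limma gave 2594 genes at an unadjusted p under 0.05 with the block, and 1279 and 1244 without RNA-seq replicates 1 and 2. An arm left with 1 library was assumed to vary like the other. Mt2 stayed positive but missed the threshold with a pseudocount of 0.1 (1.75, adjusted p = 0.0537) and with the block (1.85, adjusted p = 0.110), reversed to -0.51 with annotated length, and ranged from 1.71 to 1.93 with a library left out. Over its alternatives the adjusted p of Mt2 ran from 0.000999 to 0.327. Mt1 was at 1.58 with no filter, 1.22 without centring, -1.61 with quantile normalization and -2.62 with annotated length, and between -0.56 and 0.0038 with a library left out. Mtf1 was at -0.62 without Ribo-seq replicate 1 and at 1.37 without Ribo-seq replicate 2, where it passed the threshold (adjusted p = 0.0270). Slc30a1 passed with no filter (3.29), without centring (2.92), with quantile normalization (2.47) and without either Ribo-seq replicate, and ranged from 1.23 to 1.55 with a library left out. It gave no value with a minimum of 5 FPKM, with annotated length or without RNA-seq replicate 2, as its mean mRNA was then under the limit, and Mtf1 gave none with a minimum of 5 FPKM. Slc30a9 reversed to 0.29 with no filter. Apart from annotated length, where the change of scale is the alternative itself, the cause was not tested. Equally numbered libraries did not deviate together (r = 0.0099 over 8327 genes, across genes). This cannot decide whether they share embryos, since noise within each library can hide a shared deviation, and the labels do not say. The block moved every call to 0 and is not read as a weaker effect. Ribo-seq depth limits Mtf1 and Slc30a1, which rest on under 30 footprints.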
